A study of Mus musculus with 2 samples.

Results

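Chemokine genes, 6 in all, were followed across the cells of a medullary thymic epithelial cell (mTEC) sort: Ccl21a and Ccl19, whose proteins bind the receptor Ccr7, Ccl17 and Ccl22, which bind Ccr4, Ccl25, which binds Ccr9, and Xcl1, which binds Xcr1. They were chosen by gene symbol and are 6 of the 55487 genes counted. The spermidine group was 4-week-old female wild-type C57BL/6J mice injected intraperitoneally with the polyamine spermidine (15 mg/kg, dissolved in PBS, a salt buffer) on each of 7 days in a row. The PBS group was mice of the same strain, sex, age and genotype injected with the buffer alone. Thymi were digested, CD45+ cells were depleted on magnetic beads, and mTEChi cells and post-Aire mTEClo cells were sorted, so the gate sets how much of each cell class was available to count. Each treatment had 2 hashed samples, and all 4 were pooled in 1 droplet run. Nothing in the labels says whether the 2 samples of a treatment were different mice, so the spread behind every p-value may be technical.

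As background, chemokines are small secreted proteins that attract cells carrying the matching receptor. In the mouse thymus, Ccr7 ligands draw positively selected thymocytes from the cortex into the medulla, Ccr4 ligands bring thymocytes into contact with antigen-presenting cells, Ccl25 acts on Ccr9 of early and double-positive thymocytes and of plasmacytoid dendritic cells, and Xcl1 attracts the type 1 dendritic cells that carry Xcr1. mTECs pass through an immature stage, a dividing stage and an Aire-expressing stage, and then become mimetic cells, which resemble cells of other organs such as tuft, microfold (M) or gut cells.

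The Ccr7 ligand genes form a pair near each other on the same chromosome, as do the Ccr4 ligand genes. The Ccr7 ligands had different main source cells in these data. Both Ccr4 ligands had their highest level in myeloid-like cells, but most Ccl22 UMIs were in Aire-stage cells and most Ccl17 UMIs in myeloid-like cells. Ccl19 (chromosome 4, 42754525 to 42756577, minus strand) and Ccl21a (chromosome 4, 42772860 to 42773993, minus strand) are 16282 bases apart on GRCm38, the assembly that mm10 names, in the GENCODE M21 annotation. Ccl22 (chromosome 8, 94745590 to 94751699, plus strand) and Ccl17 (chromosome 8, 94810453 to 94812036, plus strand) are 58753 bases apart. Ccl25 lies on chromosome 8 at 4325210 to 4360020 (plus strand) and Xcl1 on chromosome 1 at 164931644 to 164935527 (minus strand). The promoters of the genes in each pair are shown for comparison. Each runs from 250 bases before to 50 bases after the RefSeq start on GRCm38.p6, with 300 bases, read 5′ to 3′ on the gene's strand. They are chr4:42773942-42774241 (minus) for Ccl21a, chr4:42756316-42756615 (minus) for Ccl19, chr8:94745434-94745733 (plus) for Ccl22 and chr8:94810203-94810502 (plus) for Ccl17. Capitals mark a match to the STAT6 motif, searched as TTC, any 4 bases and GAA.
Ccl21a: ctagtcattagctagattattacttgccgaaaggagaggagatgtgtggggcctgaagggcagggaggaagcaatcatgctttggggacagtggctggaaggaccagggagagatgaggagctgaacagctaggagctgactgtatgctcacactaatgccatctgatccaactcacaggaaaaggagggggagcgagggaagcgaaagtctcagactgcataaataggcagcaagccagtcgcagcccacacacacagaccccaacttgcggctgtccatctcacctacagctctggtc
Ccl19: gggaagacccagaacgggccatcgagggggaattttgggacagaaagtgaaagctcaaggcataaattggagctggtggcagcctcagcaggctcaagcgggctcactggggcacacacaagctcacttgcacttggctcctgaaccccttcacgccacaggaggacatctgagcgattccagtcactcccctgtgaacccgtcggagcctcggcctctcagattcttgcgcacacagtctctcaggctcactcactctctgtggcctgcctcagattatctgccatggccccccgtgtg
Ccl22: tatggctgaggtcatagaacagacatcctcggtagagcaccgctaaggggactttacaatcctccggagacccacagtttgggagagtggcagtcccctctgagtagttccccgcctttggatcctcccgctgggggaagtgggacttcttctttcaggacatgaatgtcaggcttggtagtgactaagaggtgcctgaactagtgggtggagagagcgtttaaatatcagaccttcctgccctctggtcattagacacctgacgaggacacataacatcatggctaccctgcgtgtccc
Ccl17: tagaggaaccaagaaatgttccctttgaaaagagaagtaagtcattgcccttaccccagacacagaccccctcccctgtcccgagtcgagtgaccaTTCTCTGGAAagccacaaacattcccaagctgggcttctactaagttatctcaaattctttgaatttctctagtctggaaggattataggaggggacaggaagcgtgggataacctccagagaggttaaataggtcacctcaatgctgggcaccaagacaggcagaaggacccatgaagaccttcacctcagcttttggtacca

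The first base of the STAT6 match in the Ccl17 window stood 154 bases before the gene start, and since the motif is its own reverse complement it was found on both strands. None of the other 3 windows held it, and 6.95% of 32851 promoters of that length do. None of the 4 held the NF-kB motif, searched as GGG, any 2 bases and TTTCC and present in 1.63% of promoters, or TATAAA, present in 13.6%. Both strands were searched, no matches of different motifs overlapped, and a match or its absence says nothing about binding of a factor. GC content was 53.7% for Ccl21a and 58.7% for Ccl19, and 53.3% for Ccl22 and 48.0% for Ccl17.

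RNA was counted as unique molecular identifiers (UMIs), 1 per captured molecule. Of 12139 barcodes, 8534 passed the filters on cells, and 1099 and 778 of them carried the hashtags of spermidine replicates 1 and 2 and 1078 and 784 those of PBS replicates 1 and 2. These cells held 13708680 to 19893017 UMIs in the spermidine samples and 13316095 to 17502011 in the PBS samples, with medians of 14549 to 16812 UMIs per cell over the 4 samples. They fell into 20 clusters, named as 13 classes from marker lists that left out all 6 chemokines. Names end in "-like" because they rest on markers. Aire-stage cells made up 40.0% and 39.3% of the spermidine samples and 21.1% and 30.7% of the PBS samples, tuft-like cells 21.1% and 21.0% against 35.1% and 27.9%, and immature cells 4.28% and 5.66% against 7.88% and 8.16%. In an exact two-sided permutation test over samples each of these differences had p = 0.333, the smallest that 2 samples against 2 can give. A level with both samples of 1 treatment below both of the other can reach no smaller p by that test. By that test, such a separation in either direction has a probability of 0.333 if treatment plays no part. The share of all genes separated in this way was not counted, so each such separation below is a description. The other hashed cells were left out: 1831 with more than 1 hashtag, 532 with none and 2432 with hashtags the labels do not name. Levels are in CPM, the UMIs of a gene scaled to the total UMIs of the same class and sample. Because the chemistry reads 3′ ends, a level is compared between classes of cells for 1 gene, not between genes.

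Each chemokine came mostly from 1 or 2 classes. Immature cells held 71.5% of the Ccl21a UMIs. Aire-stage cells were 1214 of the 3739 cells, at a median of 21124 UMIs per cell. They held 78.6% of the Ccl19, 86.8% of the Ccl25, 70.3% of the Ccl22 and 87.9% of the Xcl1 UMIs. Myeloid-like cells, 64 of the 3739 cells, held 65.8% of the Ccl17 and 22.1% of the Ccl22 UMIs. The bars of UMI sources show the share that each class supplied in each sample. In a whole sample, fewer cells of a class and less RNA per cell cannot be told apart, so each gene is described within classes and the whole-sample values follow.

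**Figure D1:**
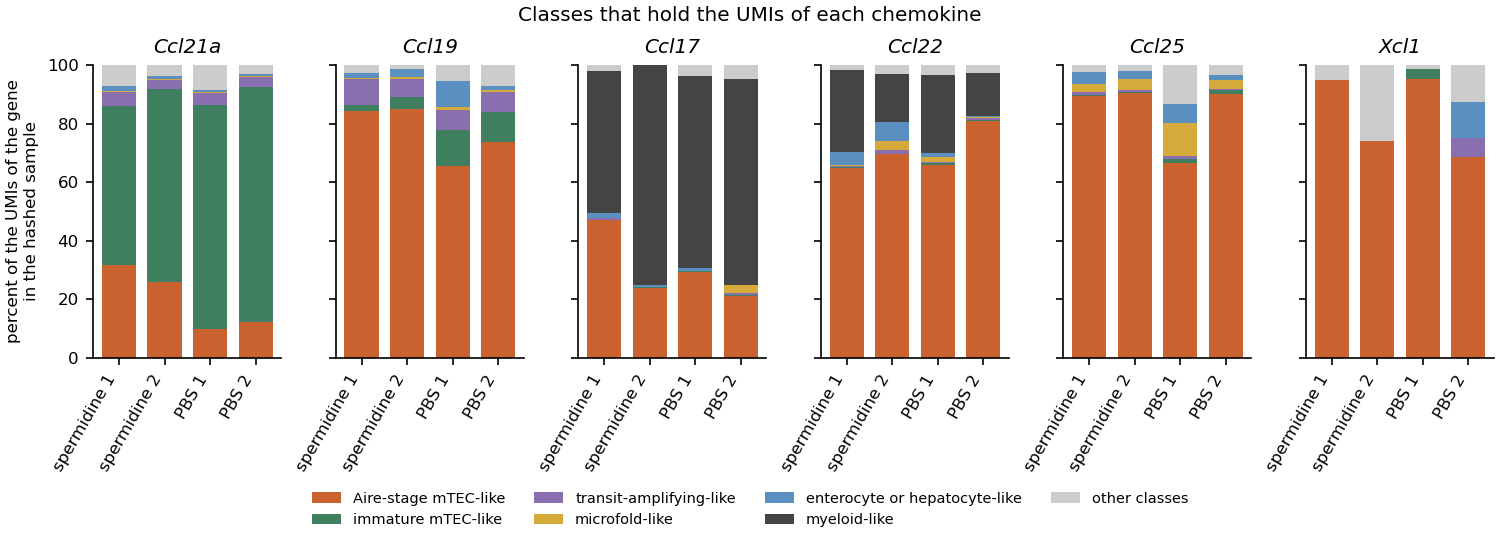
Percent of the UMIs of each chemokine (vertical axis, 0 to 100) that came from each cell class, in spermidine replicates 1 and 2 and PBS replicates 1 and 2 (horizontal axis); each bar is 1 hashed sample and each colour a class. Immature cells supplied 54.2% and 66.0% of Ccl21a in the spermidine samples and 76.6% and 80.5% in the PBS samples, while myeloid-like cells supplied 48.5% to 75.1% of Ccl17 over the 4 samples.

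Ccl21a, the ligand that is held on matrix and guides Ccr7+ thymocytes into the medulla, was highest in the immature cells. Its level there was 3966 and 4473 CPM in the spermidine samples and 4793 and 5653 CPM in the PBS samples. The lowest of these 4 values lay above every sample of every other class, and both spermidine values lay below both PBS values. At least 1 Ccl21a UMI was found in 237 of 240 immature cells (98.8%), at a median depth of 10877 UMIs per cell, and in 11 of 64 myeloid-like cells (17.2%), which should lack it, at 16326.5. After each cell was thinned to 2000 UMIs, the shares were 92.0% of 238 immature cells (exact Clopper-Pearson 95% interval 87.8 to 95.1, for counting error only) and 0 of 55 myeloid-like cells, which allows a share of up to 5.46%. The thinned share was 5.02% in tuft-like and 17.2% in Aire-stage cells.

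The 2 immature clusters had different companions to Ccl21a. Cluster 3 (137 cells, led by the matrix and Hedgehog co-receptor genes Col6a2, Gas1 and Boc) had 5322 and 4357 CPM in the spermidine samples and 5587 and 5283 CPM in the PBS samples. Cluster 17 (103 cells, led by Pth, Ccl21a itself and the tendon factor gene Scx) had 3579 and 4550 CPM against 4163 and 5865 CPM. The treatments overlapped in each cluster. In the whole immature class, the log2 fold change of spermidine over PBS was -0.32 (SE 0.16, n = 2 samples per group), with an edgeR adjusted p of 0.936. None of the 9110 genes tested in immature cells was called (percent called 0; 483 genes had an unadjusted p below 0.05). In simulated counts of this comparison the test recovered 52% of 2-fold and 99% of 4-fold changes, with 8 false calls.

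Dividing cells were the class in which the Ccl21a difference passed the test. These transit-amplifying-like cells, which carry the cell-cycle genes Mki67 and Top2a, had 73.8 and 71.6 CPM in the spermidine samples and 214 and 160 CPM in the PBS samples, from 198 and 124 UMIs against 274 and 218. Ccl21a fell there by 1.36 on the log2 scale (SE 0.16, n = 2 per group), with an edgeR adjusted p of 0.0468. It was 1 of 11 genes called among 10497 (percent called 0.105), and DESeq2 called 28 (percent called 0.267). Both dividing clusters had both spermidine values below both PBS values, and their changes were not tested against each other. Cluster 14, 152 cells led by Hmmr, Cdc20 and Ccnb1 (62 and 44 cells with spermidine, 23 and 23 with PBS), had 73.3 and 58.8 CPM in the spermidine samples and 222 and 181 CPM in the PBS samples. Its log2 fold change was -1.63 (SE 0.19), the edgeR adjusted p 0.00413 and the percent called 0.0675. Under 8 alternative settings the change ranged from -1.78 to -1.49. All 8 kept the same clusters, so other clusterings and hashtag rules were not examined for cluster 14. Fits by single cluster, here and in the Aire stage, were not planned. In cluster 12, 83 cells led by histone genes and the granulocyte genes Elane, Ngp and Ctsg (26 and 14 cells with spermidine, 19 and 24 with PBS), the values were 74.8 and 104 CPM against 207 and 150 CPM (log2 fold change -0.96, SE 0.27, edgeR adjusted p 0.796, percent called 0). At least 3 Elane UMIs were found in 2 cells of cluster 12, and at least 3 of Aire in 72. Cluster 12 held 67 and 51 of the Ccl21a UMIs of dividing cells with spermidine and 136 and 137 with PBS.

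The call in the dividing cells depended on the clustering and on single PBS samples. It held in 8 of 13 alternatives, over which the log2 fold change ranged from -2.22 to -0.53 and the adjusted p from 6.75e-16 to 0.755. Without PBS replicate 1 the change was -1.15 (edgeR adjusted p 0.148), and without PBS replicate 2 it was -1.54 (edgeR adjusted p 0.294). Krt5, the basal keratin of immature cells, moved beside it, with 189 and 135 CPM in spermidine and 355 and 237 CPM in PBS dividing cells. The summed 14 immature markers, none of them at 0, had 4103 and 3551 CPM against 4917 and 3951 CPM, and Krt14, another basal keratin, had 286 and 275 CPM against 305 and 226 CPM; for both the treatments overlapped. At least 10 Ccl21a UMIs were found in 5 of 88 and 3 of 58 dividing cells of the spermidine samples. In the PBS samples they were found in 9 of 42 and 8 of 47. The part of these in the result was not tested.

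In Aire-stage cells Ccl21a had 137 and 162 CPM in the spermidine samples and 155 and 162 CPM in the PBS samples, and the treatments overlapped (log2 fold change -0.10, SE 0.11, edgeR adjusted p 0.85; 0 of 18090 genes called, percent called 0, with 1448 at an unadjusted p below 0.05). Muscle-like cells came next to the immature cells by mean level, 323 ± 381 CPM (SD, n = 4), but a single cell held 97.5% of the UMIs of spermidine replicate 1 there. Below the immature cells, the range of each class overlapped with that of the next in the order. Tuft-like cells had 52.0 and 21.3 CPM against 25.5 and 16.1 CPM, with a log2 fold change of 0.82 (SE 0.33, edgeR adjusted p 0.397) that passed without spermidine replicate 2 (1.28, adjusted p 1.52e-05) and without PBS replicate 1 (1.23, adjusted p 0.0136). Over 13 alternatives that change ranged from -0.01, without spermidine replicate 1, to 1.56, and a single cell held 73 of the 146 Ccl21a UMIs of spermidine replicate 1 in tuft-like cells. Reads of Ccl21a cannot all be told from those of its near-identical copies: 70.5% of the 50-base stretches of its transcript are also in Gm13304, and Ccl21d, Ccl21b and Gm13304 had 194, 12 and 0 UMIs in kept cells beside 45974 of Ccl21a.

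In the whole samples Ccl21a had 209 and 286 CPM with spermidine and 392 and 488 CPM with PBS, and the treatments did not overlap. The log2 fold change was -0.79 (SE 0.20), with an edgeR adjusted p of 0.227. With DESeq2 the adjusted p was 0.00157, and over 13 alternatives the adjusted p ranged from 4.88e-10 to 0.644. edgeR called 0 of 21605 genes in the whole samples (percent called 0; 3265 at an unadjusted p below 0.05), and DESeq2 called 486 (percent called 2.49). With each class given the same weight in all samples, the values were 287 and 314 CPM with spermidine and 355 and 387 CPM with PBS, and the log2 ratio of the means was -0.30 in place of -0.83.

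Ccl19, the soluble Ccr7 ligand, had another main source than Ccl21a. Aire-stage cells had 518 and 529 CPM in the spermidine samples and 465 and 600 CPM in the PBS samples, above every sample of the other classes apart from 1 ciliated-like sample. Immature cells followed with 216 and 293 CPM against 340 and 442 CPM, and dividing cells with 198 and 139 CPM against 164 and 202 CPM. At 2000 UMIs per cell, 46.3% of Aire-stage cells (95% interval 43.4 to 49.2), 28.6% of immature cells (22.9 to 34.8) and 0.819% of tuft-like cells (0.354 to 1.61) had a Ccl19 UMI. The mean of 260 ± 273 CPM (SD, n = 4) in ciliated-like cells rested on few cells, 1 of which held 87.8% of the UMIs of PBS replicate 2.

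Both Ccr7 ligands were found together in cells of both stages. In immature cells, where 225 of 240 cells had at least 3 Ccl21a UMIs and 91 at least 3 of Ccl19, 90 had both. In the Aire stage 283 cells had at least 3 Ccl21a UMIs and 797 at least 3 of Ccl19, and 215 had both, which is 76.0% of the first and 27.0% of the second. Of these 797 cells, 654 had at least 3 UMIs of Aire, the regulator that switches on genes of other organs. Of all 1214 Aire-stage cells, 864 did. Whether genes shared cells more often than their separate counts give, at equal depth, was not tested. Within the immature class, pooled Ccl19 was 417 CPM in cluster 17 and 208 CPM in cluster 3, and these cells share libraries, so the values are a description.

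Spermidine and PBS samples overlapped for Ccl19 in Aire-stage cells, with a log2 fold change of -0.04 (SE 0.14) and an edgeR adjusted p of 0.974. In immature cells both spermidine values lay below both PBS values, with a log2 fold change of -0.63 (SE 0.20) that did not pass (edgeR adjusted p 0.846), and with the 4-hashtag assignment the change was 0.01. In dividing cells it was -0.11 (SE 0.17, edgeR adjusted p 0.936). In enterocyte- or hepatocyte-like cells, with 126 and 151 CPM against 334 and 85.5 CPM, it was -0.60 (SE 0.53, edgeR adjusted p 0.998; 0 of 8949 genes called, percent called 0, 432 at an unadjusted p below 0.05). In the whole samples Ccl19 had 299 and 286 CPM with spermidine and 176 and 299 CPM with PBS, a log2 fold change of 0.33 (SE 0.26, edgeR adjusted p 0.60). PBS replicate 1 stood apart: without PBS replicate 2 the change was 0.79 (edgeR adjusted p 0.0276), and without PBS replicate 1 it was -0.02. At equal class make-up the log2 ratio of the means was -0.13 in place of 0.30.

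**Figure D2:**
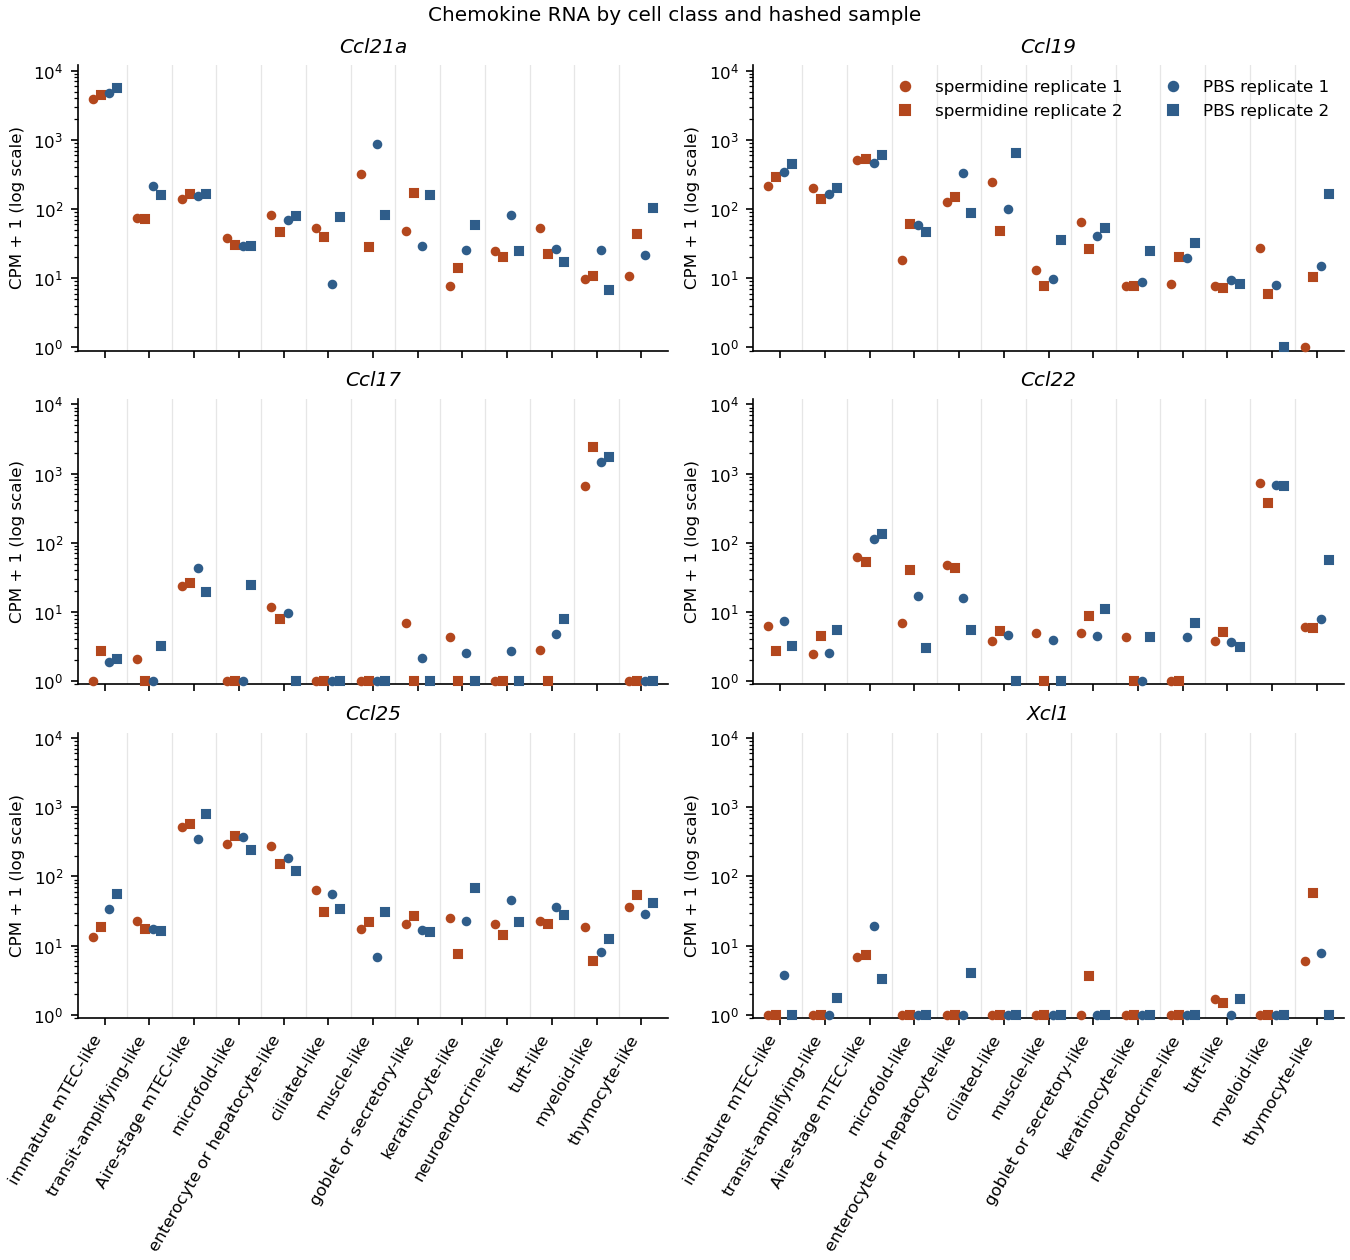
Level of each chemokine (vertical axis, CPM + 1 on a log scale) in each of the 13 cell classes (horizontal axis); points are hashed samples, spermidine left and PBS right within a class. Ccl21a stands highest in immature cells, at 3966 to 5653 CPM, Ccl17 and Ccl22 in myeloid-like cells, and Ccl25 in Aire-stage and microfold-like cells.

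Ccl17, a Ccr4 ligand known from activated dendritic cells, was highest in myeloid-like cells. They held 65.8% of its UMIs and Aire-stage cells held 29.8%. In spermidine replicate 1 these shares were 48.5% and 47.0%. Myeloid-like cells had 650 and 2447 CPM in the spermidine samples and 1462 and 1745 CPM in the PBS samples. Aire-stage cells, the next class, had 22.4 and 25.4 CPM against 42.4 and 18.6 CPM, and the highest sample of any other class had 23.8 CPM. The treatments overlapped in both classes. Whole samples had 23.2 and 48.7 CPM with spermidine and 35.8 and 32.4 CPM with PBS. The Aire-stage level exceeded that of the whole sample only in PBS replicate 1. The myeloid values came from 18 and 14 cells of the spermidine samples and 18 and 14 of the PBS samples, and in PBS replicates 1 and 2 a single cell held 65.9% and 87.8% of the Ccl17 UMIs. The class was present although CD45+ cells had been depleted: 12 of its 13 markers exceeded their level elsewhere by over 2-fold, and Itgax and Tyrobp were among its 10 leading genes.

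The myeloid-like cells split into 3 sub-clusters that differed in Ccl17, Ccl22 and the receptors. Sub-cluster 0 (28 cells) was led by C1qb, Cd207, Clec9a and Xcr1, with markers of type 1 dendritic cells and of macrophages among its leading genes, and was left unnamed. Sub-cluster 1 (21 cells) was led by the basophil protease genes Mcpt8 and Prss34 and by Il4, while 4 of 6 type 2 dendritic cell markers were more than 2-fold higher, and was also left unnamed. Sub-cluster 2 (15 cells) was activated dendritic cell-like, with 10 of 11 markers more than 2-fold higher and Apol7c, Nudt17, Tnfrsf4 and Ccr7 in the lead. The clustering used these cells' genes, so differences between sub-clusters are a description.

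Ccl17 was highest in sub-cluster 1, with 817 and 5025 CPM in the spermidine samples and 2799 and 13421 CPM in the PBS samples, the last from a single cell. All 1221 of its UMIs there were in the 16 cells with at least 3 UMIs of Mgl2, a lectin gene of type 2 dendritic cells, and none were in the 2 cells with Mcpt8. Over all myeloid-like cells, 1288 of 1440 Ccl17 UMIs were in Mgl2 cells. Sub-cluster 2 had 637 and 1405 CPM against 86.5 and 609 CPM, and sub-cluster 0 had 526 and 243 CPM against 11.1 and 158 CPM. Only 2 Ccl17 UMIs fell in the 8 myeloid-like cells with at least 3 Xcr1 UMIs.

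Ccl22, the other Ccr4 ligand, was highest in a different sub-cluster in 3 of the 4 samples. The activated dendritic cell-like sub-cluster 2 had 2076 and 2208 CPM in the spermidine samples and 735 and 3585 CPM in the PBS samples. Sub-cluster 1 had 28.5 and 587 CPM against 1096 and 251.3 CPM, and sub-cluster 0 had 170 and 0 CPM against 0 and 87.0 CPM. Of the 21 myeloid-like cells with at least 3 Ccl22 UMIs, 10 also had at least 3 of Ccr7, the receptor that leads activated dendritic cells along Ccl21 and Ccl19, and 16 had at least 3 of Ccl17.

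**Figure D3:**
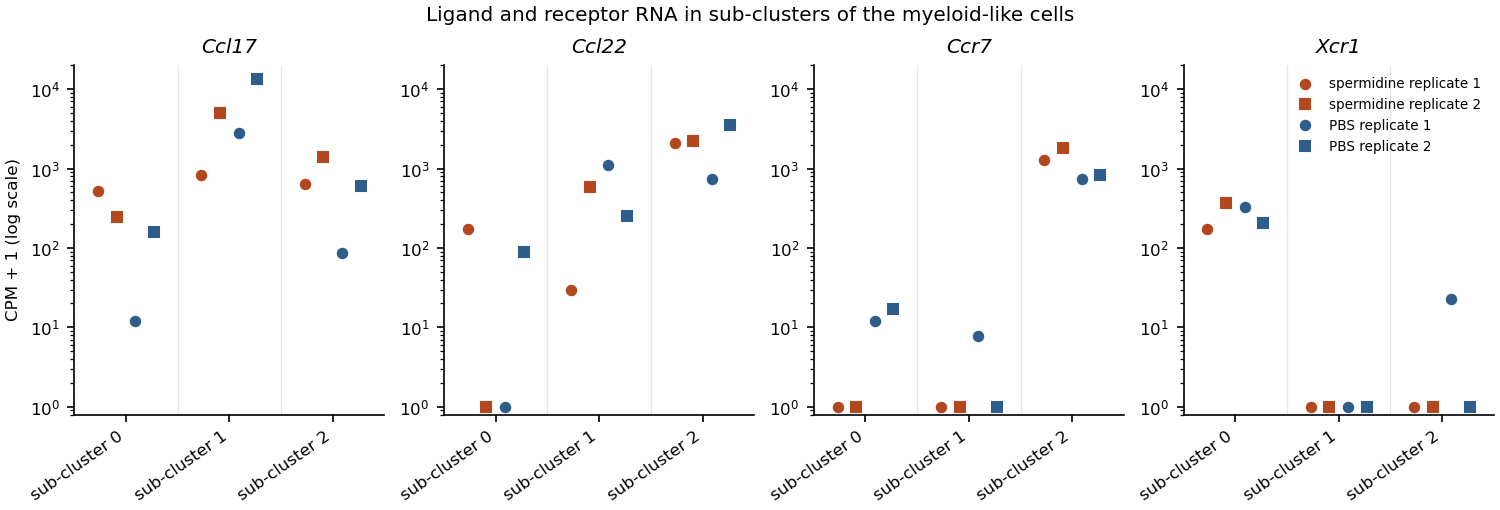
Ligand and receptor levels (vertical axis, CPM + 1 on a log scale) in the 3 sub-clusters of the myeloid-like cells (horizontal axis); points are hashed samples, spermidine left and PBS right. Ccl17 is highest in sub-cluster 1, Ccr7 in sub-cluster 2 and Xcr1 in sub-cluster 0; Ccl22 is highest in sub-cluster 2 in 3 of 4 samples and in sub-cluster 1 in PBS replicate 1, with 1 to 11 cells behind each point.

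In all myeloid-like cells Ccl22 had 735 and 371 CPM with spermidine and 687 and 666 CPM with PBS. Fitted with at least 10 cells per sample, a limit lowered after the data were seen, the log2 fold change was -0.30 (SE 0.34) for Ccl22 and -0.08 (SE 0.47) for Ccl17, each with an edgeR adjusted p of 0.995 (0 of 3914 genes called, percent called 0, 122 at an unadjusted p below 0.05). Ccl17 turned on 1 sample: without spermidine replicate 2 its change was -1.31 (edgeR adjusted p 0.0091), and without spermidine replicate 1 it was 0.58. The myeloid share of cells was 1.64% and 1.80% against 1.67% and 1.79%.

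Ccl22 in Aire-stage cells had 60.3 and 51.5 CPM in the spermidine samples and 111 and 131 CPM in the PBS samples, from 584 and 324 UMIs against 480 and 643. Both spermidine values lay below both PBS values. The log2 fold change was -1.12 (SE 0.15, n = 2 per group), and it did not pass the test across all genes with edgeR (adjusted p 0.554, unadjusted p 0.000738). With DESeq2 the adjusted p was 8.53e-05, among 86 genes called (percent called 0.475), and over 13 alternatives the change ranged from -1.32 to -0.98 and the adjusted p from 7.29e-07 to 0.912. In simulated counts of this comparison edgeR recovered 16% of 2-fold and 88% of 4-fold changes, with 6 false calls.

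Few cells carried it. At least 3 Ccl22 UMIs were found in 82 of 1214 Aire-stage cells, 8.18% and 4.90% of those in the spermidine samples and 7.05% and 6.22% in the PBS samples, and the treatments overlapped. These cells averaged 15.0 and 18.8 Ccl22 UMIs in the spermidine samples and 28.4 and 41.1 in the PBS samples. A single cell held 23.1% and 25.9% of the Aire-stage Ccl22 UMIs in the spermidine samples and 39.4% and 29.4% in the PBS samples, and with each cell capped the log2 fold change was -1.02 (edgeR adjusted p 0.449). After thinning, the share of Aire-stage cells with a Ccl22 UMI was 4.90% and 4.36% against 6.51% and 5.22%.

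Most carriers had an epithelial marker and few had a haematopoietic one. Of the 82, 77 had at least 3 UMIs of Epcam, an epithelial surface gene. At least 3 of Aire were found in 68 of the 82 and in 864 of all 1214 Aire-stage cells. These counts were 29 and 103 for Ccr7, and 22 and 43 for Ccl17. Of the haematopoietic genes, Ptprc reached 3 UMIs in 1 of the 82, Tyrobp in 6 and Itgax in 0. The cells with any of these held 235 of the 2031 Ccl22 UMIs. The 13 myeloid markers, none of them at 0, summed to 2078 and 1597 CPM in Aire-stage cells of the spermidine samples and 2071 and 2052 CPM in those of the PBS samples. The part of myeloid RNA in the Ccl22 difference was not tested.

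Ccl22 differed between the 3 Aire-stage clusters, and so did their shares. Cluster 1, led by the kallikrein genes Klk1b26 and Klk1b11, had 121 and 71.5 CPM in the spermidine samples and 207 and 226 CPM in the PBS samples. Cluster 0 had 43.8 and 45.9 CPM against 74.2 and 72.0 CPM. Cluster 6, with 5 of 18 Aire-stage markers more than 2-fold higher, had 19.7 and 35.5 CPM against 17.9 and 12.0 CPM. Clusters 1 and 0 were lower and cluster 6 higher in both spermidine samples, with log2 fold changes of -1.20 (SE 0.25, edgeR adjusted p 0.594), -0.70 (SE 0.17, adjusted p 0.771) and 0.85 (SE 0.41, adjusted p 0.93). The percent called was 0 in cluster 1, 0 in cluster 0 and 0.0184 in cluster 6. Cluster 1 made up 39.5% and 40.8% of Aire-stage cells with spermidine and 47.1% and 52.7% with PBS, and cluster 6 made up 24.5% and 23.2% against 15.4% and 13.7%.

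**Figure D4:**
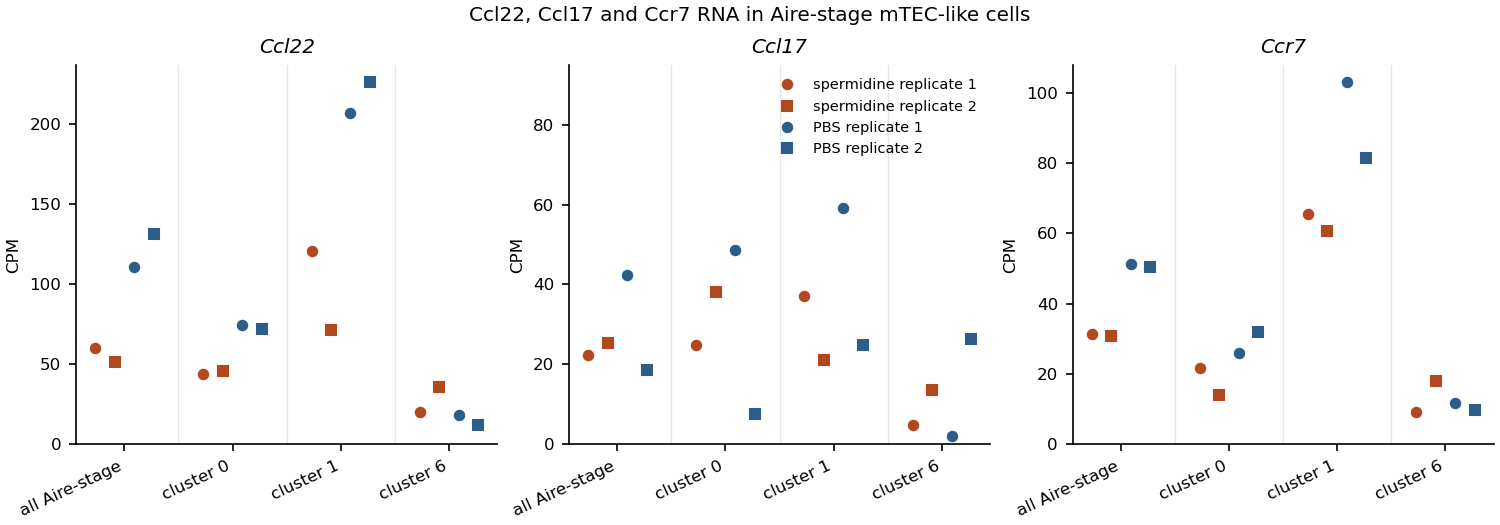
Levels of Ccl22, Ccl17 and the receptor gene Ccr7 in CPM (vertical axis, starting at 0) in all Aire-stage mTEC-like cells and in their 3 clusters (horizontal axis); points are hashed samples, spermidine left and PBS right. In cluster 1 the spermidine samples sit at 121 and 71.5 CPM of Ccl22, below the PBS samples at 207 and 226 CPM.

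Ccl17 in Aire-stage cells had a log2 fold change of -0.35 (SE 0.39, edgeR adjusted p 0.862), and 22 of the 43 cells with at least 3 Ccl17 UMIs also had at least 3 of Ccl22. Enterocyte- or hepatocyte-like cells had Ccl22 at 45.9 and 41.9 CPM in the spermidine samples and 15.0 and 4.5 CPM in the PBS samples, a log2 fold change of 2.11 (SE 0.49, edgeR adjusted p 0.686), which ranged from 0.77 to 3.17 over 11 alternatives. A single cell held 74.4% and a single cell 80.0% of these UMIs in spermidine replicates 1 and 2, so the separation of the treatments rested on 2 cells. In the whole samples Ccl22 had 45.2 and 34.0 CPM with spermidine and 41.7 and 59.6 CPM with PBS (log2 fold change -0.31, SE 0.23, edgeR adjusted p 0.576). Ccl17 had 23.2 and 48.7 CPM against 35.8 and 32.4 CPM (0.10, SE 0.34, edgeR adjusted p 0.917). The treatments overlapped for both. At equal class make-up Ccl22 had 38.6 and 30.8 CPM with spermidine and 56.4 and 64.1 CPM with PBS, without overlap, and the log2 ratio of the means was -0.80 in place of -0.35.

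Ccl25, the Ccr9 ligand, was made in Aire-stage, microfold-like and enterocyte- or hepatocyte-like cells. Aire-stage cells had 511 and 570 CPM in the spermidine samples and 345 and 783 CPM in the PBS samples. Microfold-like cells, named from Gp2, Spib, Ccl20 and other genes of gut M cells, had 294 and 384 CPM against 373 and 240 CPM. Enterocyte- or hepatocyte-like cells, led by Clca1, Guca2a and other gut genes, had 272 and 148 CPM against 181 and 120 CPM. The 3 classes stood above all others in every sample, and the treatments overlapped in each.

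At 2000 UMIs per cell, 25.8% of Aire-stage cells (95% interval 23.3 to 28.4), 30.1% of microfold-like cells (22.6 to 38.6) and 24.9% of enterocyte- or hepatocyte-like cells (19.4 to 31.1) had a Ccl25 UMI. In tuft-like cells it was 5.12% (3.82 to 6.69), at a median depth of 11618 UMIs against 21124 in Aire-stage cells before thinning. Of the 343 Aire-stage cells with at least 3 Ccl25 UMIs, 286 had at least 3 of Aire and 254 of Ccl19. Over all 1214 Aire-stage cells the counts were 864 and 797. Within the enterocyte- or hepatocyte-like class, the 29 cells of cluster 19, led by Clca4b and Reg3b, had 771 and 465 CPM in the spermidine samples and 726 and 549 CPM in the PBS samples. Cluster 13 had 201 and 128 CPM against 143 and 68.9 CPM.

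The log2 fold change of Ccl25 was -0.08 (SE 0.40, edgeR adjusted p 0.982) in Aire-stage, 0.07 (SE 0.28, adjusted p 0.991) in microfold-like and 0.49 (SE 0.36, adjusted p 0.998) in enterocyte- or hepatocyte-like cells. In microfold-like cells 0 of 6588 genes were called (percent called 0; 374 at an unadjusted p below 0.05). Immature cells had little Ccl25, 12.3 and 17.3 CPM in the spermidine samples and 32.8 and 55.2 CPM in the PBS samples, and the log2 fold change of -1.56 (SE 0.41) had an edgeR adjusted p of 0.623. Without PBS replicate 1 that change was -1.91 (edgeR adjusted p 0.0164, over a range of 0.0164 to 1), and a single cell held 47.1% of the Ccl25 UMIs of PBS replicate 2 there. The effect in Aire-stage cells minus that in immature cells was 1.59 on the log2 scale (SE 0.32, edgeR adjusted p 0.175; 6 of 16099 genes called, percent called 0.0373). Against tuft-like cells, where Ccl25 had 21.4 and 19.4 CPM against 34.6 and 26.7 CPM (log2 fold change -0.58, edgeR adjusted p 0.296, percent called 0.11), the difference was 0.71 (SE 0.46, edgeR adjusted p 0.85, percent called 0).

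In the whole samples Ccl25 had 278 and 289 CPM with spermidine and 129 and 318 CPM with PBS. The log2 fold change was 0.37 (SE 0.42, edgeR adjusted p 0.722). As for Ccl19, PBS replicate 1 was the low sample: without PBS replicate 2 the change was 1.19 (edgeR adjusted p 0.0276), and without PBS replicate 1 it was -0.16. At equal class make-up the log2 ratio of the means was -0.06 in place of 0.34.

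Xcl1, known in the mouse thymus as a product of Aire-expressing mTECs that attracts Xcr1+ dendritic cells, was sparse. It had 214 UMIs in the 3739 cells, of which 188 (87.9%) were in 25 Aire-stage cells. Aire-stage cells had 5.89 and 6.35 CPM in the spermidine samples and 18.4 and 2.25 CPM in the PBS samples, and the treatments overlapped. The high value of PBS replicate 1 came from a single cell with 71 of its 80 UMIs, which also had 50 UMIs of Aire, 55 of Epcam and none of Cd3e or Ptprc. Of the 10 cells with the most Xcl1, 9 were Aire-stage and 1 thymocyte-like, and 6 of the Aire-stage cells had no Ptprc and no Cd3e UMI.

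Thymocyte-like cells had a higher mean Xcl1 level, from 4.97 and 57.3 CPM with spermidine and 6.92 and 0 CPM with PBS, but 12 of their 14 UMIs were in 1 cell. Myeloid-like cells had no Xcl1 UMI. The log2 fold change in Aire-stage cells was -0.75 (SE 0.91, edgeR adjusted p 0.884), and it ranged from -1.58 to 1.41 when single samples were left out. In the whole samples Xcl1 had 3.02 and 3.94 CPM against 4.80 and 1.20 CPM (log2 fold change 0.24, SE 0.63, edgeR adjusted p 0.892).

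The receptor genes were counted in the same cells. Ccr7 had 407 and 87.9 CPM in myeloid-like cells of the spermidine samples and 128 and 144 CPM in those of the PBS samples, and it was concentrated in sub-cluster 2, with 1275 and 1807 CPM against 735 and 824 CPM. Thymocyte-like cells had 109 and 186 CPM against 201 and 23.8 CPM, and microfold-like cells had 56.8 and 76.7 CPM against 82.6 and 101 CPM. In Aire-stage cells Ccr7 had 31.4 and 30.7 CPM with spermidine and 51.1 and 50.5 CPM with PBS, without overlap, and the log2 fold change of -0.72 (SE 0.10) had an edgeR adjusted p of 0.554. In cluster 1, where Ccl22 was also highest of the 3 Aire-stage clusters, Ccr7 had 65.6 and 60.5 CPM against 103 and 81.4 CPM.

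Ccr4 was highest by mean in Aire-stage cells, with 24.4 and 33.4 CPM in the spermidine samples and 38.5 and 42.1 CPM in the PBS samples (log2 fold change -0.50, SE 0.19, edgeR adjusted p 0.621). Its ranges overlapped with those of enterocyte- or hepatocyte-like cells, with 54.1 and 22.3 CPM against 32.4 and 21.0 CPM, and of thymocyte-like cells, with 39.7 and 38.2 CPM against 0 and 23.8 CPM. Ccr9 was highest in thymocyte-like cells, with 417 and 248 CPM against 214 and 167 CPM. Xcr1 was highest in myeloid-like cells, with 63.9 and 186 CPM against 107 and 149 CPM, and in their sub-cluster 0 it had 170 and 370 CPM against 323 and 206 CPM.

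Of the atypical receptors, which bind chemokines without attracting cells, Ackr4 takes up Ccl19, Ccl21 and Ccl25 and was a tuft-like cell product in these data. Tuft-like cells had 71.2 and 75.1 CPM in the spermidine samples and 77.7 and 78.3 CPM in the PBS samples. Aire-stage cells had 3.31 and 1.43 CPM against 2.99 and 6.13 CPM. Ackr2, a scavenger that also takes up Ccl17 and Ccl22, stayed at 3.45 to 4.5 CPM in Aire-stage cells. Ccrl2, which presents chemerin, had 26.1 and 34.2 CPM in myeloid-like cells with spermidine and 42.7 and 17.2 CPM with PBS.

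The genes with the most similar pattern over the 13 classes were ranked by Pearson's r of log2(mean CPM + 1), among 13163 genes; the classes share libraries, so r is a description. For Ccl21a they were Tgfb1i1 (r 0.958), BC034090 (0.937) and Prss33 (0.937), all highest in immature cells. For Ccl19 they were Cxcl11 (0.951), a Cxcr3 ligand, the defensin gene Defb42 (0.941) and the adhesion gene Vcam1 (0.935). For Ccl17 they were Ms4a6d (0.957), Kdr (0.952) and Ly86 (0.945), and for Ccl22 Mir155hg (0.962), Lrrk2 (0.934) and the co-stimulator gene Cd86 (0.933), all highest in myeloid-like cells. For Ccl25 they were the chymase gene Cma1 (0.937), the defensin gene Defa24 (0.916) and Stkld1 (0.915), all highest in Aire-stage cells. For Xcl1 they were Krt9 (0.942), Gsdma2 (0.931) and Gm19585 (0.922), on very few UMIs of Xcl1.

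Other genes of the chemokine system were read in Aire-stage cells from fixed lists, in which edgeR called no gene. Of 20 other chemokines, 15 had a negative and 5 a positive log2 fold change, with a median of -0.42 beside -0.0048 over all 18090 genes. Ccl11, an eosinophil attractant, had 8.47 and 6.99 CPM in the spermidine samples and 34.8 and 30.5 CPM in the PBS samples (log2 fold change -2.08, SE 0.19, edgeR adjusted p 0.554), without overlap. Ccl5, a T cell attractant, had 586 and 493 CPM against 1662 and 977 CPM (-1.30, SE 0.26, edgeR adjusted p 0.554), also without overlap. On the positive side were the Cxcr3 ligands Cxcl10, with 781 and 829 CPM against 660 and 663 CPM (0.27, SE 0.06, edgeR adjusted p 0.581), and Cxcl11 (0.28, SE 0.10, edgeR adjusted p 0.596).

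Genes of RANK, lymphotoxin and NF-kB signalling, which drive mTEC maturation, had 13 positive and 5 negative log2 fold changes with a median of 0.04. Those with the smallest p on each side were Tnfrsf11a, the gene of RANK (0.25, edgeR adjusted p 0.581), Traf3 (0.21, 0.624), Rela (-0.37, 0.602) and Tnfrsf1a (-0.30, 0.707). Of 10 epithelial and dendritic cell transcription factors, 3 were positive and 7 negative with a median of -0.01. They included Aire (0.14, edgeR adjusted p 0.754), Pax9 (0.02, 0.984) and Irf8 (-0.34, 0.557). Of the receptors, 2 were positive and 2 negative (median -0.14), and of the atypical receptors 2 were positive and 1 negative (median 0.04).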

How the data were processed

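RNA and hashtag libraries came from 1 pool that held the 4 hashed samples (10x 3′ chemistry, per the labels). The authors deposited UMI counts per gene and cell, and per the file headers Cell Ranger 7.1.0 made them; mm10, bcl2fastq and Seurat are named in the submitters' processing notes. Here, a barcode was kept if it had 1000 or more UMIs, 500 or more genes and a mitochondrial share below 15%. Hashtags were called with HTODemux (Seurat 5.3.0, quantile 0.99) over the 6 hashtags with signal, and cells with several hashtags were removed as doublets; no RNA doublet caller was run. Cells were clustered with scanpy 1.11.5 (2000 variable genes less the chemokines among them, 30 components, 15 neighbours, Leiden resolution 1) and named from marker lists; the naming and splitting rules were set after the clusters were seen. Counts were summed per class and hashed sample, in classes with at least 20 cells in each, and tested with edgeR 4.0.16 (quasi-likelihood, TMM, filterByExpr, Benjamini-Hochberg threshold 0.05; R 4.3.3). DESeq2 1.42.0 was an alternative. CPM use no TMM factor, and a cell counts as carrying a gene from 3 UMIs. Intervals are exact 95% binomial, cover counting error only, and a count of 0 allows 3 counts.

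The genes named are the 6 chemokines, their receptors, the 3 genes most like each in pattern (at least 20 CPM in a class), and from each gene list the 2 with the smallest p on each side, of which 1 is not reported here; genes that lead a cluster or stand beside a result were added. The members and lists were chosen with earlier results of these data known. Summed counts of samples of 1 treatment differed by more than independent sampling of UMIs gives (chi-square per degree of freedom 8.18 for spermidine and 12.9 for PBS). That measure cannot separate a difference between samples from the spread between cells. The edgeR test was checked on simulated counts with 200 changed genes. Recovery over those genes does not give the power for a single chemokine, whose UMIs can sit in a few cells.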

Additional observations from a re-analysis of the deposited data

Results flagged for a closer look

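Ccl21a in microfold-like cells had 37.2 and 29.1 CPM in the spermidine samples and 28.0 and 27.8 CPM in the PBS samples, both spermidine values above both PBS values, from 63 UMIs in all, while immature and dividing cells had both spermidine values below. The log2 ratio of mean CPM, spermidine over PBS, in microfold-like cells exceeded that in immature cells by 0.56 and that in dividing cells by 1.61. The sign of the fitted log2 fold change in microfold-like cells turned over alternatives, from -1.21 with the 4-hashtag assignment to 0.34. Ccl22 was higher in both spermidine samples in enterocyte- or hepatocyte-like cells and lower in both in Aire-stage cells. The log2 ratios of mean CPM differed by 3.29. Class pairs were picked for separations in opposite directions, with at least 50 UMIs of the gene in each class. The sign of each difference therefore follows from that choice. These differences between classes were not tested, and of the 39 Ccl22 UMIs of spermidine replicate 1 in enterocyte- or hepatocyte-like cells, 29 were in 1 cell of cluster 19, and 1 cell held 80.0% of those of spermidine replicate 2.

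Of the kept cells, 2432 carried 1 of 2 hashtags that the labels give to no sample. They were in no comparison.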

How the results depend on the processing

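Genes called, with edgeR unless named, depended on the setting. DESeq2 called 486 genes in whole samples, 86 in Aire-stage, 20 in enterocyte- or hepatocyte-like, 1 in immature, 8 in microfold-like, 28 in dividing and 27 in tuft-like cells. Without a low-count filter the counts were 2442, 641, 242, 98, 126, 377 and 367 in the same order, and 50 in myeloid-like cells. The 4-hashtag assignment gave 2 in immature, 1 in microfold-like and 40 in tuft-like cells, and the margin rule for hashtags 1 in immature and 4 in tuft-like cells. Capped counts gave 17 in dividing and 53 in tuft-like cells, Leiden resolution 0.5 gave 0 in dividing cells, and keeping the chemokines among the variable genes gave 24 there. Leaving out single samples gave 0 to 699 in whole samples, 0 to 10 in enterocyte- or hepatocyte-like, 8 to 55 in immature, 2 to 83 in microfold-like, 36 to 54 in myeloid-like, 0 to 430 in dividing and 106 to 380 in tuft-like cells; a group of 1 sample is then assumed to vary like the other.

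Deviations of same-numbered samples had correlations of -0.0943 to 0.0635 across genes. With 2 pairs this cannot settle whether equal replicate numbers pair the samples. With the replicate block, 20 genes were called in enterocyte- or hepatocyte-like, 258 in dividing and 30 in tuft-like cells, and the Ccl25 change in Aire-stage cells was 0.04.

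Ccl21a in whole samples passed with DESeq2 (-0.79) and without the filter (-0.80), as did Ccl22 in Aire-stage cells (-1.12 and -1.10). Ccl21a in dividing cells did not pass with the 4-hashtag assignment (-1.37), resolution 0.5 (-0.85) or the chemokines kept (-0.53). Without the filter, the Aire-stage minus tuft-like difference for Ccl21a (-0.82) and the Aire-stage minus immature difference for Ccl25 (1.59) passed. Signs turned, for changes that did not pass, for Ccl19 with the 4-hashtag assignment in Aire-stage (0.02) and immature cells (0.01), for Ccl25 in Aire-stage cells at resolution 0.5 (0.01) and with the margin rule (0.09), and for Ccl25 in microfold-like cells with capped counts (-0.01). The myeloid-like share, spermidine minus PBS, was -0.0091 percentage points, and 0.0364 at resolution 0.5 and 0.331 with the 4-hashtag assignment. At equal class make-up, added after the data were seen, the log2 ratios in whole samples were -0.13 for Ccl19, -0.18 for Ccl17, -0.06 for Ccl25 and -0.58 for Xcl1. The causes were not tested.

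Over single samples left out, changes in whole samples ranged from -0.02 to 0.79 for Ccl19, -0.52 to 0.55 for Ccl17, -0.16 to 1.19 for Ccl25 and -0.41 to 1.54 for Xcl1. In Aire-stage cells they ranged from -0.22 to 0.01 for Ccl21a, -0.22 to 0.18 for Ccl19, -0.82 to 0.33 for Ccl17, -0.56 to 0.65 for Ccl25 and -1.58 to 1.41 for Xcl1. Ccl19 ranged from -1.23 to 0.62 and Ccl25 from -0.06 to 0.87 in enterocyte- or hepatocyte-like cells, Ccl25 from -0.23 to 0.47 in microfold-like, Ccl21a from -1.54 to -1.15 and Ccl19 from -0.36 to 0.08 in dividing, and Ccl17 from -1.31 to 0.58 and Ccl22 from -0.90 to 0.11 in myeloid-like cells. Aire-stage minus tuft-like differences ranged from -1.49 to 0.02 for Ccl21a, -0.07 to 0.52 for Ccl19 and -0.19 to 1.41 for Ccl25, and the Aire-stage minus immature difference for Ccl25 from 1.40 to 1.85.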
